A study of Rattus norvegicus with 6 samples.

Results

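The mitochondrial genome of the rat heart was examined through the 37 genes that the deposited table places on the chromosome MT, out of 32623 genes in all. They were chosen by that chromosome label alone and comprised 13 mRNAs, 2 rRNAs and 22 tRNAs. Total RNA of myocardial tissue had been sequenced in 2 groups of 3 samples from wild-type rats, which the labels describe as male. In the ischemia group the left anterior descending coronary artery was tied during open-chest surgery under ventilation, with a time of 30 min in the labels. The sham group carried the same time, and no ligation is described for it. Age, strain and the part of the heart that was sampled are not given in the sources used here. Both groups carry replicate numbers from 1 to 3, and values below follow that order within each group.

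Mitochondrial DNA is a small circle present in many copies in each cell, and cardiomyocytes, which depend on oxidative phosphorylation for contraction, hold a large amount of it. Both strands are read by a dedicated RNA polymerase into long transcripts that span many genes. These are then cut, mostly at the tRNAs that lie between the other genes, into mRNAs, rRNAs and tRNAs whose levels afterwards depend on how long each RNA is kept. The mRNAs encode core subunits of complexes I, III, IV and V of the respiratory chain, the rRNAs form the mitochondrial ribosome and the tRNAs serve translation inside the organelle. All other subunits of these complexes, and the proteins that copy, transcribe, cut and degrade mitochondrial nucleic acids, come from nuclear genes.

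The table lists the genes from position 1 to position 15415 of MT, in coordinates of a build that is not given in the sources used here. On the plus strand stood 28 genes, including both rRNAs, 14 tRNAs and 12 mRNAs. On the minus strand stood 9 genes, namely Mt-nd6, a subunit of complex I, and 8 tRNAs. The table gives each mRNA by its symbol and the rRNAs and tRNAs under 1 shared placeholder, so that the latter are named here by type and first position. Accordingly, rRNA_68 (MT:68-1025) is the shorter rRNA gene, with 958 bases, and rRNA_1094 (MT:1094-2664) the longer, with 1571 bases. Mt-atp8 and Mt-atp6 overlap in the table, as do Mt-atp6 and Mt-co3, Mt-nd4l and Mt-nd4, and Mt-nd5 and Mt-nd6, the last pair on opposite strands. How the counting treated reads of overlapping genes and whether it used strand are not given in the sources used here, so the split of reads within these pairs is uncertain.

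The libraries held between 68529126 and 79591989 counts. Counts on chromosome Y were 161 in sham replicate 1 and between 3218 and 8970 in the other 5 libraries, so that library goes against the labelled sex. Without it the median log2 fold change (ischemia over sham) of the mitochondrial mRNAs was -0.14, as with it. Single genes moved more, Mt-nd1 from -0.36 to -0.56 and tRNA_3761 from 0.70 to 0.40, and no gene of the table was called without it. The tissue make-up of the libraries differed in ways the groups do not describe. Summed FPKM (fragments scaled by gene length and library size) of 11 ventricular cardiomyocyte markers ranged from 27720 to 46111 in sham and from 13199 to 26897 in ischemia. Members of this list differed. Myl3 was 796, 9024 and 1021 in sham against 5691, 3180 and 5780 in ischemia. Myl2 and Myh7 were also lowest in sham replicates 1 and 3. For 6 atrial markers, none of them at 0 in any library, the sum was 48457, 252 and 39432 in sham against 9643, 2084 and 1288 in ischemia. Sham replicate 2 alone among the sham samples was low. Nppa made up most of the sums of ischemia replicates 2 and 3, at 2051 and 1251 against 67.7 in sham replicate 2. Every other atrial marker was lower in these ischemia samples than in sham replicate 2, with Myl7 at 10.0 and 12.3 against 117. For 14 neutrophil and monocyte markers the sum ranged from 124 to 199 in sham and from 2277 to 8951 in ischemia. The highest value was in ischemia replicate 2. Of these markers 13 of 13 tested were called higher, while 2 of the 14 were at 0 in a library. Summed levels of 5 fibroblast markers ranged from 685 to 2223 in sham and from 264 to 682 in ischemia. Those of 5 endothelial markers ranged from 147 to 171 and from 160 to 181. For 6 adipocyte markers the range was 475 to 1265 in sham, highest in replicate 3, and 393 to 680 in ischemia, with a median log2 fold change of -3.66, all 6 negative, 0 called and 2 at 0 in a library. Red blood cell genes summed to between 4289 and 7862 in sham and between 5140 and 9987 in ischemia. The part of these markers in the values of the mitochondrial genes was not tested.

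None of the 37 mitochondrial genes passed the test after ischemia. All 37 had a mean FPKM of at least 0.5 and were tested with the edgeR quasi-likelihood test on counts, adjusted by the Benjamini-Hochberg method over 13964 genes with a threshold of 0.05. With that test 0 were called higher and 0 lower, whereas over all tested genes 6.71% were called, 5.18% higher and 1.53% lower. Before adjustment 3 of the 37, all of them tRNAs, had p under 0.05, a share of 8.11% against 32.4% of all tested genes. FPKM values of the groups did not overlap for 12 of the 37 (9 higher and 3 lower in ischemia), a share of 32.4% against 38.6% of all tested genes. These counts depended on the scaling. With FPKM divided by the TMM factors that the edgeR test uses (0.834 for sham replicate 2, 1.11 for ischemia replicate 2), 5 of the 37 did not overlap, 2 higher and 3 lower and all of them tRNAs, a share of 13.5% against 41.2% of all tested genes. The median log2 fold change (ischemia over sham) was -0.14 for the mRNAs, 0.41 for the rRNAs and 0.075 for the tRNAs, beside -0.0015 for all tested genes. The median of the mRNAs was 0.13 without sham replicate 2 and 0.011 without ischemia replicate 2. The rRNAs were at 0.036 and 0.17 without ischemia replicate 2, and many tRNAs moved with single libraries, as given below. In bulk tissue, fewer cells of a type and less RNA per cell cannot be told apart.

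The depth was not the same for all members. Mean counts per library ran from 47599 to 6166318 among the mRNAs and were 176055 and 194429 for the rRNAs. Among the tRNAs they ran from 14.5 to 5332, and 8 of the 22 had a mean under 100. Library kits of this type favour fragments longer than a tRNA, so tRNA values are those of the reads that remained. For the mRNAs the standard errors of the log2 fold change were between 0.22 and 0.52, and their 95% confidence intervals lay between 0.36-fold and 2.06-fold. For the tRNAs the intervals reached from 0.108-fold to 7.13-fold.

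Levels per gene length were compared in FPKM. Mt-co1 (MT:5323-6867), the catalytic core subunit of complex IV, had the highest FPKM of the mitochondrial mRNAs in both groups, with a mean FPKM of 53561 ± 14836 in sham and 50340.3 ± 9196 in ischemia (SD, n = 3). It was 45690.5, 70674 and 44319.7 in sham against 56417, 39761 and 54843 in ischemia. Sham replicate 2 was highest and ischemia replicate 2 lowest, and the groups overlapped. The other core subunits of complex IV were also abundant. Mt-co3 (MT:8599-9382) came next, at 23351, 25370.2 and 20547 in sham against 23408, 30049.8 and 26363 in ischemia, again with overlap. Mt-co2 (MT:7006-7689), which takes up electrons from cytochrome c, was 16698, 14648 and 14126 in sham against 15723, 19319 and 17793 in ischemia, and only sham replicate 1 reached into the range of ischemia. None of the 3 passed the test: the edgeR log2 fold changes were -0.21 ± 0.52 (SE) for Mt-co1, 0.12 ± 0.31 (SE) for Mt-co2 and 0.093 ± 0.36 (SE) for Mt-co3, with adjusted p-values of 0.798, 0.8 and 0.872. With single libraries left out the estimate of Mt-co1 ran from -0.38 (without sham replicate 3) to 0.19 (without sham replicate 2). That of Mt-co2 ran from 0.021 (without sham replicate 3) to 0.20 (without sham replicate 2) and that of Mt-co3 from -0.038 (without sham replicate 3) to 0.29 (without sham replicate 2). The ratio of Mt-co1 to Mt-co3 in FPKM varied from 1.32 in ischemia replicate 2 to 2.79 in sham replicate 2.

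**Figure D1:**
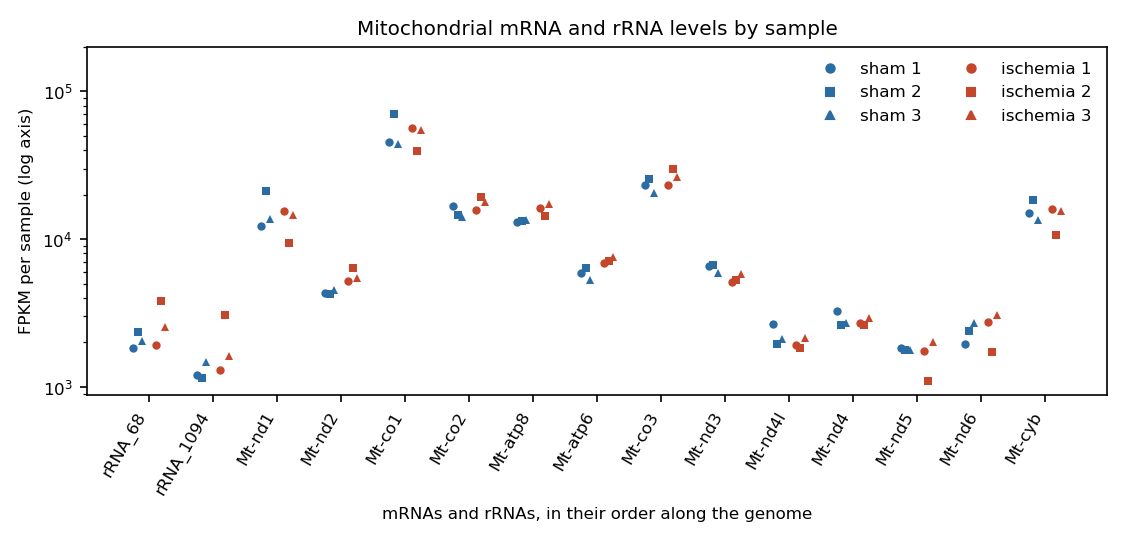
FPKM (log axis) of the 13 mitochondrial mRNAs and 2 rRNAs in each of the 6 samples, ordered as along the genome; blue marks sham, red ischemia, and the marker shape gives the replicate. Mt-co1 lay between 39761 and 70674 in every sample, and for both rRNAs the highest point was ischemia replicate 2.

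The mRNAs of complex V, the ATP synthase, did not pass the test, and whether their groups overlapped depended on the scaling. Mt-atp8 (MT:7758-7961) and Mt-atp6 (MT:7919-8599) both encode parts of its membrane sector, Mt-atp6 forming much of the proton path. FPKM of Mt-atp8 was 13128, 13330.0 and 13412 in sham against 16287, 14438 and 17154 in ischemia. FPKM of Mt-atp6 was 5853, 6369 and 5292 in sham against 6940.1, 7133 and 7577 in ischemia. Neither range overlapped between the groups in FPKM. Divided by the TMM factors, Mt-atp8 was 12682, 15990 and 12739.8 in sham against 16014, 12999.9 and 17604 in ischemia, and Mt-atp6 was 5654, 7639 and 5027 in sham against 6824, 6422 and 7776 in ischemia. On that scale sham replicate 2 lay within the range of ischemia for both, so the groups overlapped. The log2 fold changes of 0.17 ± 0.26 (SE) and 0.20 ± 0.29 (SE) had edgeR adjusted p-values of 0.665 and 0.646. With single libraries left out they ran from 0.076 (without ischemia replicate 3) to 0.29 (without sham replicate 2) for Mt-atp8 and from 0.081 (without sham replicate 3) to 0.39 (without sham replicate 2) for Mt-atp6. The start of Mt-atp6 and the end of Mt-atp8 share sequence in the table, and the ratio of Mt-atp8 to Mt-atp6 in FPKM stayed between 2.02 and 2.53 in all 6 samples. Against sham replicate 2 alone, the sham sample low in atrial markers, the log2 fold changes turned to -0.035 for Mt-atp8 and -0.12 for Mt-atp6.

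Mt-cyb (MT:14136-15278) encodes cytochrome b, the central subunit of complex III. Its FPKM was 14939, 18333 and 13438 in sham against 16018, 10597 and 15556 in ischemia. The groups overlapped, with sham replicate 2 at the top and ischemia replicate 2 at the bottom. Its log2 fold change was -0.25 ± 0.41 (SE), at an edgeR adjusted p of 0.69, and with single libraries left out it ran from -0.40 (without sham replicate 3) to 0.015 (without sham replicate 2).

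Complex I takes electrons from NADH, and 7 mRNAs encode subunits of its membrane arm. Of these, 5 had a negative and 2 a positive log2 fold change, with a median of -0.23. These signs rested in part on single libraries. Mt-nd1 turned to 0.063 without sham replicate 2, Mt-nd5 turned to 0.011 without ischemia replicate 2, and the sign of Mt-nd6 also turned. Mt-nd1 (MT:2740-3694) had an FPKM of 12187, 21079.9 and 13639 in sham against 15538, 9435 and 14634 in ischemia. It thus shared the pattern of Mt-co1 and Mt-cyb, with sham replicate 2 at the top and ischemia replicate 2 at the bottom. Mt-nd2 (MT:3904-4942) had an FPKM of 4296, 4275 and 4537 in sham against 5190.1, 6397 and 5456 in ischemia, with each ischemia sample above each sham sample. Mt-nd3 (MT:9451-9798) did the opposite, with an FPKM of 6605, 6713 and 5907 in sham against 5114, 5309.9 and 5780.1 in ischemia, each ischemia sample lying below each sham sample. Divided by the TMM factors both genes overlapped between the groups, through sham replicate 2 for Mt-nd2 and through sham replicate 3 and ischemia replicate 3 for Mt-nd3. Neither passed the test, with log2 fold changes of 0.28 ± 0.26 (SE) for Mt-nd2 and -0.34 ± 0.26 (SE) for Mt-nd3 and edgeR adjusted p-values of 0.481 and 0.375. Without sham replicate 2 the estimate of Mt-nd3 was -0.20. That of Mt-nd1 was -0.36 ± 0.46 (SE) (edgeR adjusted p = 0.605) and ran from -0.56 (without sham replicate 1) to 0.063 (without sham replicate 2) with single libraries left out.

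The remaining complex I mRNAs were among the lowest of the mitochondrial mRNAs per length. Mt-nd4l (MT:9870-10166) and Mt-nd4 (MT:10160-11537) are neighbours that overlap. FPKM of Mt-nd4l was 2676, 1945 and 2096 in sham against 1913, 1838 and 2149 in ischemia. FPKM of Mt-nd4 was 3258, 2626 and 2684 in sham against 2697, 2635 and 2900.0 in ischemia. For both, sham replicate 1 was highest, and the groups overlapped. For Mt-nd4, sham replicate 2 lay just below every ischemia sample. The ratio of Mt-nd4l to Mt-nd4 stayed between 0.698 and 0.821. Mt-nd5 (MT:11736-13565) was nearly the same in the sham samples and spread more in ischemia, with an FPKM of 1831, 1764 and 1784 in sham against 1737, 1085 and 1994 in ischemia. Ischemia replicate 2 was lowest for Mt-nd5 and also for Mt-nd6 (MT:13543-14061, minus strand), whose FPKM was 1961, 2371 and 2705 in sham against 2744, 1707 and 3040.1 in ischemia. Log2 fold changes were -0.26 ± 0.22 (SE) for Mt-nd4l, -0.14 ± 0.26 (SE) for Mt-nd4 and -0.23 ± 0.34 (SE) for Mt-nd5, at edgeR adjusted p-values of 0.426, 0.724 and 0.655, and with single libraries left out they ran from -0.38 (without ischemia replicate 3) to -0.17 (without sham replicate 1), from -0.23 (without sham replicate 3) to -0.07 (without ischemia replicate 2) and from -0.47 (without ischemia replicate 3) to 0.011 (without ischemia replicate 2). For Mt-nd6 it was 0.012 ± 0.34 (SE) (edgeR adjusted p = 0.982), and its sign turned under RLE and upper-quartile scaling and without any 1 of sham replicate 1, ischemia replicate 1 and ischemia replicate 3.

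In order of mean FPKM, sham gave Mt-co1, Mt-co3, Mt-nd1, Mt-cyb, Mt-co2, Mt-atp8, Mt-nd3, Mt-atp6, Mt-nd2, Mt-nd4, Mt-nd6, Mt-nd4l, rRNA_68, Mt-nd5 and rRNA_1094. Neighbours in this order whose sample ranges did not overlap were Mt-co1 and Mt-co3, Mt-co2 and Mt-atp8, Mt-atp8 and Mt-nd3, Mt-atp6 and Mt-nd2, Mt-nd2 and Mt-nd4, rRNA_68 and Mt-nd5, and Mt-nd5 and rRNA_1094. The other neighbours overlapped. In ischemia the same 2 genes led, and Mt-co2 and Mt-atp8 came next, ahead of Mt-cyb and Mt-nd1, with overlapping ranges among these 4 from each to the next. Mt-nd5 was then lowest by mean, with each RNA from rRNA_68 down overlapping the next in range, and without ischemia replicate 2 the lowest was rRNA_1094, as in sham.

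The composition of the mitochondrial mRNA pool does not depend on the scaling between libraries. The percent of mitochondrial mRNA counts that fell on Mt-co1 was 46.4, 53.9 and 47.3 in sham against 50.2, 43.1 and 48.3 in ischemia. The 3 complex IV mRNAs together held between 65.1% and 68.8%, the 7 complex I mRNAs between 17.2% and 19.9%, Mt-cyb between 8.49% and 11.2%, and the 2 complex V mRNAs between 3.48% and 5.47%. Only the complex V mRNAs had shares that did not overlap between the groups. The percent for Mt-atp8 was 1.76, 1.34 and 1.89 in sham against 1.91, 2.06 and 1.99 in ischemia. For Mt-atp6 it was 2.62, 2.14 and 2.49 in sham against 2.72, 3.40 and 2.94 in ischemia. For both the two-sided exact permutation test gave p = 0.1, the smallest that 3 samples against 3 allow, and 0.65 after Benjamini-Hochberg adjustment over the 13 mRNAs.

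The 2 rRNAs took a small part of the mitochondrial counts, and 1 ischemia sample stood apart. Whether the libraries were depleted of rRNA is not given in the sources used here, so rRNA levels are not set against mRNA levels as amounts in the cell. FPKM of rRNA_68 was 1841, 2362 and 2032 in sham against 1909, 3820.1 and 2533 in ischemia. FPKM of rRNA_1094 was 1203, 1152 and 1464 in sham against 1301, 3049 and 1626 in ischemia. Ischemia replicate 2 was highest for both, while for both replicate 1 lay within the sham range and replicate 3 above it. Log2 fold changes were 0.28 ± 0.34 (SE) for rRNA_68 and 0.54 ± 0.35 (SE) for rRNA_1094, at edgeR adjusted p-values of 0.586 and 0.314. Without ischemia replicate 2 they were 0.036 and 0.17, and that of rRNA_68 was 0.15 without sham replicate 1, 0.46 without ischemia replicate 1 and 0.50 without sham replicate 2. The percent of mitochondrial counts on both rRNAs was 2.34, 1.97 and 2.85 in sham against 2.18, 5.58 and 2.75 in ischemia, a difference of 1.12 percentage points (two-sided exact permutation test, p = 0.5) that was 0.081 without ischemia replicate 2. The ratio of rRNA_68 to rRNA_1094 in FPKM lay between 1.25 and 2.05. Ischemia replicate 2 was also the library with the most neutrophil and monocyte marker RNA and the lowest summed FPKM of the ventricular list. Of that list, Myl2, Myl3 and Myh7 were instead lowest in sham replicates 1 and 3. The part of these markers in the rRNA values was not tested.

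All tRNAs together held a percent of the mitochondrial counts of 0.128, 0.217 and 0.139 in sham against 0.217, 0.167 and 0.219 in ischemia. The ischemia mean was higher by 0.040 percentage points, and sham replicate 2 lay at the level of ischemia replicates 1 and 3 (two-sided exact permutation test, p = 0.2), and the difference was 0.068 without sham replicate 2 and -0.016 against it alone. Among the 14 tRNAs with a mean count of at least 100, none passed the test. The greatest depth lay on 4 minus-strand tRNAs side by side between Mt-nd2 and Mt-co1, namely tRNA_5010, tRNA_5081, tRNA_5185 and tRNA_5256. Between tRNA_5081 and tRNA_5185 lie 32 bases that the table assigns to no gene. In mammals the start site for copying the second DNA strand lies within this tRNA cluster. Summed counts of the 4 were 8618, 26545 and 8278 in sham against 22080, 10873 and 19290 in ischemia, which was between 55.2% and 72.9% of all tRNA counts.

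In this cluster sham replicate 2 and ischemia replicates 1 and 3 were high, and sham replicates 1 and 3 and ischemia replicate 2 were low. For tRNA_5081, with the most counts of all tRNAs, the counts were 2861, 9058 and 2933 in sham against 7236, 2975 and 6931 in ischemia. Those of tRNA_5256 were 2166, 6288 and 1816 in sham against 5457, 3417 and 4157 in ischemia. Log2 fold changes of the 4 lay between 0.095 and 0.21, with standard errors between 0.55 and 0.63 and edgeR adjusted p-values between 0.812 and 0.928. Without sham replicate 2 they rose to between 0.96 and 1.12, and against sham replicate 2 alone they were between -0.85 and -0.74. All 4 turned negative without sham replicate 1 (between -0.21 and -0.072) and without sham replicate 3 (between -0.20 and -0.12). Those of tRNA_5010 and tRNA_5081 were also negative without ischemia replicate 1 or ischemia replicate 3. Against Mt-co1, the next gene along on the opposite strand, the cluster's counts per 1000 counts of Mt-co1 were 1.60, 3.0 and 1.67 in sham against 3.07, 2.36 and 3.21 in ischemia, so that sham replicate 2 lay within the range of ischemia. Summed counts of these tRNAs were low in sham replicates 1 and 3, the sham samples high in atrial markers, and in ischemia replicate 2, with few. They were high in ischemia replicate 1, whose summed atrial marker FPKM of 9643 was the highest in ischemia. Per 1000 counts of Mt-co1, ischemia replicate 2 lay in between, at 2.36. The part of the atrial markers in these values was not tested.

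**Figure D2:**
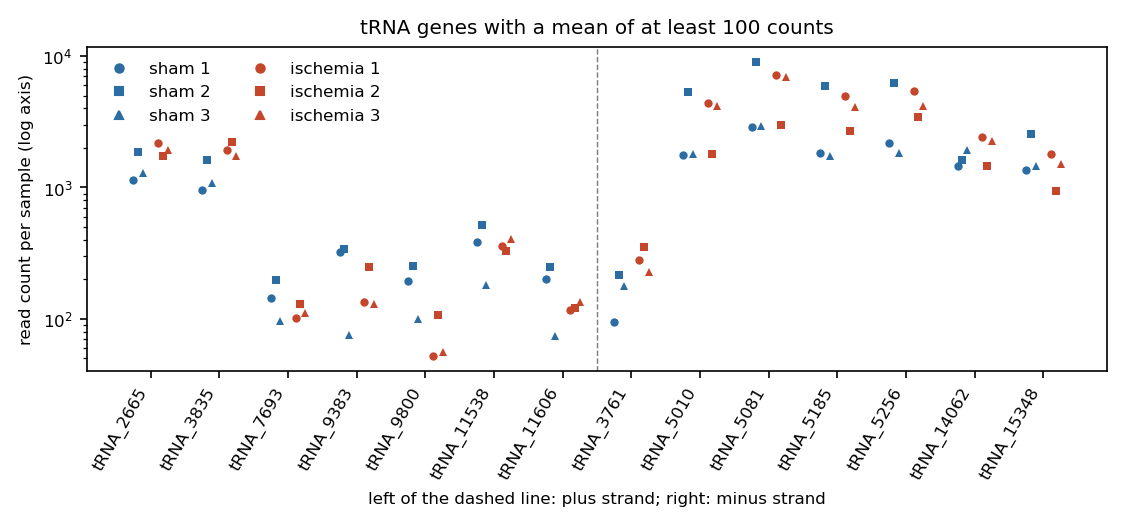
Read counts per sample (log axis) of the 14 tRNA genes with a mean of at least 100 counts, plus-strand genes left of the dashed line and minus-strand genes right of it; blue marks sham, red ischemia, and the marker shape gives the replicate. Among the 4 minus-strand genes from tRNA_5010 to tRNA_5256, sham replicate 2 was highest and sham replicates 1 and 3 lay at or near the bottom.

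On the plus strand, tRNA_2665 and tRNA_3835 had the most counts. Both are next to complex I genes, the former directly before Mt-nd1 and the latter directly before Mt-nd2. The counts of tRNA_2665 were 1148, 1858 and 1278 in sham against 2172, 1730 and 1912 in ischemia. Those of tRNA_3835 were 952, 1622 and 1079 in sham against 1920, 2235 and 1729 in ischemia. In FPKM each ischemia sample lay above each sham sample for both, by a narrow margin between sham replicate 2 and ischemia replicate 2 for tRNA_2665. Divided by the TMM factors, sham replicate 2 lay within the ischemia range for both. The log2 fold changes were 0.34 ± 0.29 (SE) and 0.58 ± 0.29 (SE), at edgeR adjusted p-values of 0.43 and 0.215. With single libraries left out they ran from 0.17 (without sham replicate 1) to 0.66 (without sham replicate 2) for tRNA_2665 and from 0.39 (without sham replicate 1) to 0.92 (without sham replicate 2) for tRNA_3835, and against sham replicate 2 alone they were -0.14 and 0.059. The minus-strand tRNA_3761 was separated between the groups in FPKM with and without division by the TMM factors. Its counts were 95, 216 and 178 in sham against 283, 351 and 229 in ischemia, with a log2 fold change of 0.70 ± 0.42 (SE) and an edgeR adjusted p of 0.284, and the former was 0.40 without sham replicate 1.

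The tRNA between Mt-nd3 and Mt-nd4l, tRNA_9800, had the largest change among the tRNAs with a mean of at least 100 counts. Its counts were 193, 251 and 100 in sham against 52, 107 and 56 in ischemia. Ischemia replicate 2 was above sham replicate 3, so the groups overlapped in counts and FPKM. Divided by the TMM factors they no longer did, by a narrow margin. The log2 fold change was -1.45 ± 0.52 (SE), with a 95% confidence interval of -2.71 to -0.20 and an edgeR adjusted p of 0.119. DESeq2 called it lower (-1.49, adjusted p = 0.0398), in a fit that called 1742 of 13964 genes lower. Over all 19 alternatives the log2 fold change stayed between -2.03 and -1.06, and in 7 of them no gene of the table was called. The plus-strand tRNAs tRNA_7693, tRNA_9383, tRNA_11538 and tRNA_11606 had log2 fold changes between -0.64 and -0.078 and overlapping groups. Without sham replicate 2 these lay between -0.24 and 0.37 and without sham replicate 3 between -1.08 and -0.41. Among the minus-strand tRNAs, tRNA_14062 was at 0.22 ± 0.28 (SE) and tRNA_15348 at -0.44 ± 0.40 (SE), also with overlap. With single libraries left out they ran from 0.047 (without ischemia replicate 3) to 0.44 (without ischemia replicate 2) and from -0.64 (without sham replicate 1) to 0.0033 (without sham replicate 2).

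Of the 8 tRNAs with a mean under 100 counts, 2 are named because their unadjusted p was under 0.05, a choice made after their values were seen. Counts of tRNA_1026, which lies between the 2 rRNAs and touches both, were 40, 36 and 30 in sham against 99, 111 and 68 in ischemia. Every ischemia sample was above every sham sample. The log2 fold change was 1.29 ± 0.37 (SE), with a 95% confidence interval of 0.39 to 2.19 and an edgeR adjusted p of 0.0798. It was called higher by DESeq2 (1.26, adjusted p = 0.0135), by limma on log2(FPKM + 0.1) (1.38, adjusted p = 0.0276) and on log2(FPKM + 1) (1.27, adjusted p = 0.0312), and by edgeR when only genes averaging an FPKM of 5 or more were tested (1.25, adjusted p = 0.0414). Over all genes these fits called, in the same order, 2071, 850 and 657 of 13964 and 725 of 8156 higher. The gene tRNA_1026 averaged 64 counts, against 176055 for rRNA_68 and 194429 for rRNA_1094. The part that reads of these neighbours had in its value was not tested. Counts of tRNA_11665, directly before Mt-nd5, were 90, 86 and 24 in sham against 24, 21 and 18 in ischemia. Sham replicate 3 lay close to the ischemia samples in counts and slightly above them in FPKM. The log2 fold change was -1.76 ± 0.60 (SE) (95% confidence interval -3.21 to -0.31, edgeR adjusted p = 0.109), and it lay between -2.24 and -1.25 over the 19 alternatives.

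The percent of mitochondrial counts on minus-strand genes, most of them on Mt-nd6, was 0.750, 0.779 and 1.05 in sham against 0.983, 0.706 and 1.05 in ischemia. The difference was 0.054 percentage points (two-sided exact permutation test, p = 0.9), and it turned to -0.00082 without sham replicate 1 and -0.016 without ischemia replicate 3. Sham replicate 3 and ischemia replicate 3 were highest and nearly equal. Of the 9 minus-strand genes 0 were called, 1 had groups that did not overlap in FPKM (11.1%), and the median log2 fold change was 0.11. Without sham replicate 2, tRNA_3761 and the 4 tRNAs between Mt-nd2 and Mt-co1 rose to between 0.96 and 1.12. Against sham replicate 2 alone, tRNA_3761 was at 0.19 and those 4 between -0.85 and -0.74. The other minus-strand genes stayed at or below 0.44 under every alternative. Among the 28 plus-strand genes 0 were called, 11 had groups that did not overlap (39.3%), and the median was -0.11. Over all tested genes 6.71% were called and 38.6% did not overlap. Divided by the TMM factors, 1 minus-strand and 4 plus-strand genes did not overlap.

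Along the plus strand the estimates were not spread evenly, a pattern noticed after the values were seen and given without a test. Of 10 plus-strand genes before Mt-co1, 8 had a positive log2 fold change and the median was 0.31. Of the 7 genes from Mt-co1 to Mt-co3, 5 were positive and the median was 0.12. After Mt-co3, all 11 genes (Mt-nd3, Mt-nd4l, Mt-nd4, Mt-nd5, Mt-cyb and 6 tRNAs) were negative, with a median of -0.34. The 5 mRNAs among them had log2 fold changes between -0.34 and -0.14. Their percent of the mitochondrial mRNA counts was 18.4, 15.2 and 17.3 in sham against 15.9, 14.1 and 16.0 in ischemia, so the groups overlapped. Neighbouring genes come from the same primary transcript and are not independent measurements. Among the 11, tRNA_11538 turned positive when libraries were scaled by total counts or to the mitochondrial mRNA counts. Without sham replicate 2, 9 of the 11 were negative, and against sham replicate 2 alone 5 of the 10 genes before Mt-co1, 1 of the 7 from Mt-co1 to Mt-co3 and 0 of the 11 after it were positive.

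**Figure D3:**
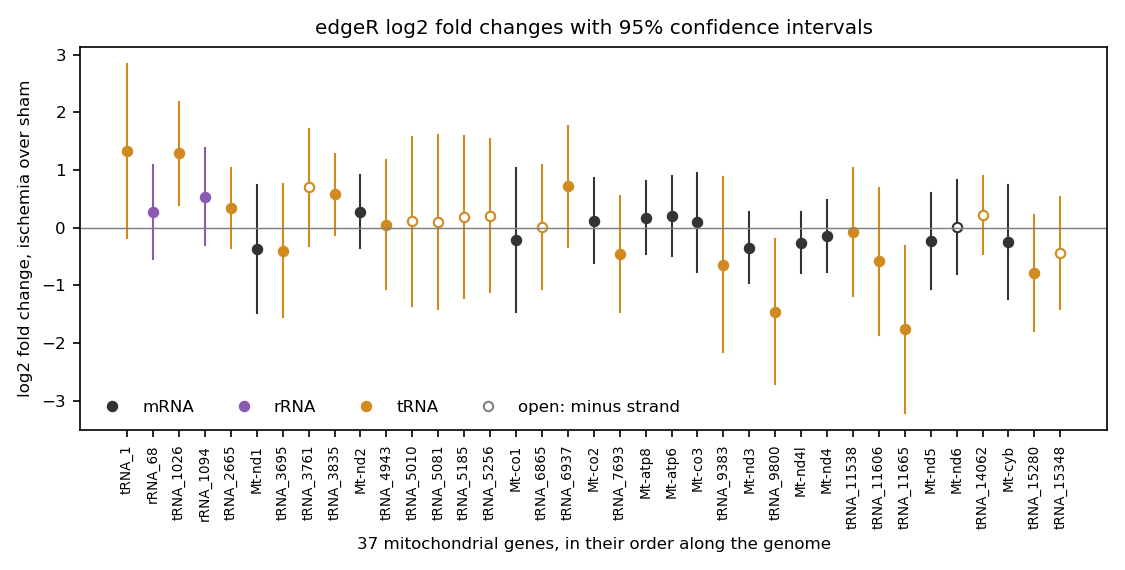
Log2 fold changes (ischemia over sham, edgeR) of all 37 mitochondrial genes in their order along the genome, with 95% confidence intervals as vertical lines; colours give the type and open circles the minus strand. The intervals of tRNA_1026, tRNA_9800 and tRNA_11665 did not cross 0 before adjustment, and the 11 plus-strand genes after Mt-co3 all lay below 0.

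The mitochondrial genome as a whole held a percent of all counts of 16.1, 21.4 and 15.4 in sham against 18.4, 15.7 and 18.7 in ischemia. The group means were 17.6 ± 3.26 percent in sham and 17.6 ± 1.67 percent in ischemia (SD, n = 3), a difference of -0.025 percentage points (two-sided exact permutation test, p = 1). Per gene length, as a share of summed FPKM, it was between 23.4% and 30.2% in sham and between 24.3% and 27.5% in ischemia. The highest share of counts belonged to sham replicate 2, without which the difference was 1.84 percentage points, and without ischemia replicate 2 it was 0.93. Ranges of the groups overlapped for the share of the genome, of the rRNAs, of the tRNAs and of the minus-strand genes alike. Sham replicate 2 held the highest FPKM of the 6 samples for 16 of the 37 genes and ischemia replicate 2 for 11.

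**Figure D4:**
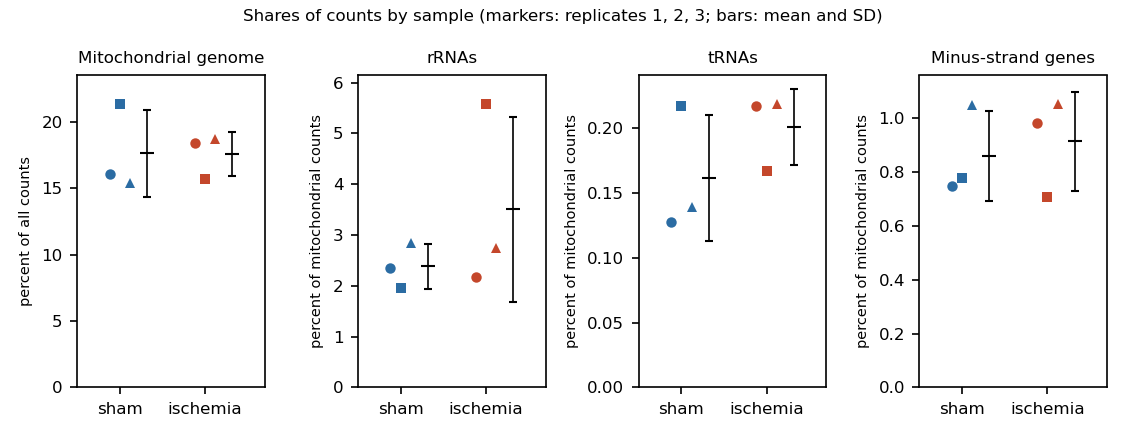
Percent of all counts taken by the mitochondrial genome, and percent of mitochondrial counts taken by rRNAs, tRNAs and minus-strand genes, in each sample; circles, squares and triangles are replicates 1, 2 and 3, and bars give mean and SD. In each panel sham and ischemia overlapped, and ischemia replicate 2 stood apart in rRNA at 5.58%.

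The nuclear genes whose products join the mitochondrial subunits in the same complexes were compared next. The lists found 70 symbols in 73 genes of the table for complexes I, III, IV and V. All 73 had a negative log2 fold change, with a median of -0.42, 0 were called, against 6.71% of all tested genes, and 1 had an unadjusted p under 0.05, a share of 1.37% against 32.4%. By complex the medians were -0.46 for complex I, -0.41 for complex III, -0.34 for complex IV and -0.44 for complex V. The lowest estimate was that of Ndufs1, the subunit of complex I that carries several of its iron-sulfur clusters, with an FPKM of 266, 294 and 221 in sham against 204, 91.1 and 129 in ischemia. Each ischemia sample was below each sham sample, and the log2 fold change was -0.98 ± 0.38 (SE) at an edgeR adjusted p of 0.138. The estimate nearest to 0 was that of Cox7c, a small subunit of complex IV, at -0.15 ± 0.25 (SE) (edgeR adjusted p = 0.7). The count of negative values rested on 2 libraries, since 53 of the 73 were negative without sham replicate 2 and 66 without ischemia replicate 2. The median was -0.11 without sham replicate 2, -0.18 without ischemia replicate 2 and -0.68 without ischemia replicate 1. Against sham replicate 2 alone all 73 were negative, with a median of -0.94.

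The ratio of mitochondrial mRNA counts to the counts of these nuclear subunits compares both genomes within a library. On the log2 scale it was 2.15, 1.97 and 2.10 in sham against 2.08, 2.84 and 2.44 in ischemia. Ischemia replicates 2 and 3 were above all sham samples, and replicate 1 lay among them. The mean was 2.08 ± 0.093 in sham and 2.45 ± 0.38 in ischemia, a difference of 0.38 (two-sided exact permutation test, p = 0.3). It was 0.18 without ischemia replicate 2. Summed FPKM of the ventricular cardiomyocyte markers was also lowest in ischemia replicate 2. Their median log2 fold change was -0.79, with 2 positive, 9 negative and 0 of 11 called. Myl2, Myl3 and Myh7 were instead lowest in sham replicates 1 and 3. The part of these markers in the ratio was not tested.

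**Figure D5:**
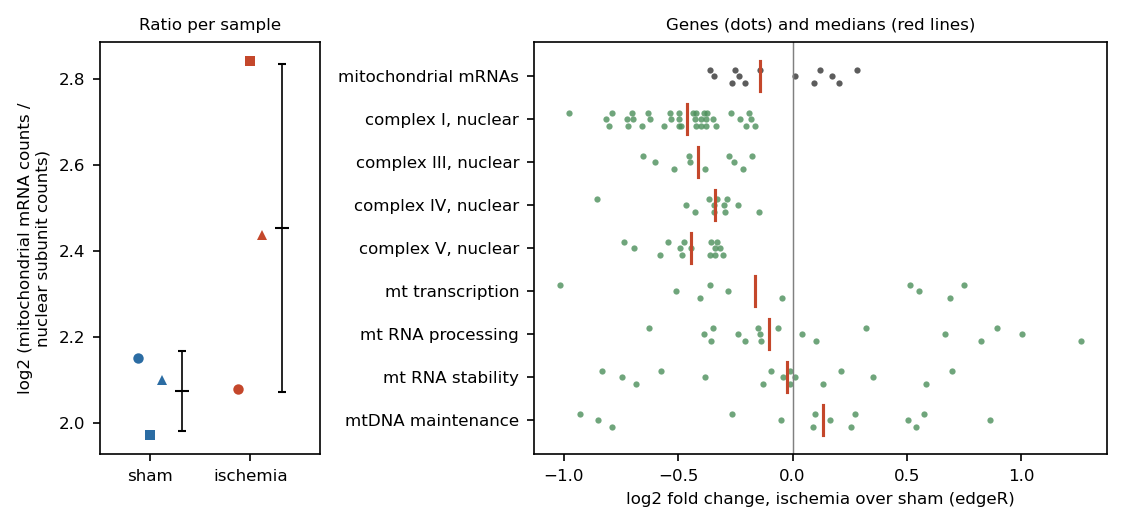
Left, log2 ratio of mitochondrial mRNA counts to nuclear respiratory chain subunit counts in each sample, with mean and SD as bars; right, log2 fold changes (ischemia over sham, edgeR) of the 13 mitochondrial mRNAs and of nuclear gene lists, each dot a gene and each red line a median. All nuclear subunits lay below 0, and the mitochondrial mRNAs lay on both sides of it.

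The nuclear genes that copy, transcribe, process and degrade mitochondrial nucleic acids were read from 4 lists, with 60 genes found and 58 tested. With edgeR, 1 was called higher and 0 lower, a share of 1.72% against 6.71% of all tested genes. An unadjusted p under 0.05 was found for 13, a share of 22.4% against 32.4%, and the median log2 fold change was -0.026 (27 positive, 31 negative). The called gene was Pus1, a pseudouridine synthase that modifies tRNAs, with an FPKM of 8.41, 10.5 and 8.06 in sham against 20.7, 25.8 and 23.8 in ischemia. Each ischemia sample was above each sham sample, and the log2 fold change was 1.26 ± 0.24 (SE) at an edgeR adjusted p of 0.0419. With single libraries left out its log2 fold change stayed between 1.13 and 1.52. The call was lost with no filter on low values (edgeR adjusted p = 0.0517) and with scaling to the mitochondrial mRNA counts (edgeR adjusted p = 0.0757). It was also lost with the atrial covariate, with the replicate block and against sham replicate 2 alone, at edgeR adjusted p-values of 0.0763, 0.106 and 0.394, and in these fits no gene of the table was called. It held without ischemia replicate 1 and was lost without ischemia replicate 2 (edgeR adjusted p = 0.0680), and without any of the other 4 libraries no gene of the table was called.

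Among 10 transcription genes the median was -0.16 and 0 were called. The highest estimate was that of Mterf1, a termination factor, at 0.75 ± 0.35 (SE) and the lowest that of Mterf2, a member of the same family, at -1.02 ± 0.41 (SE), at edgeR adjusted p-values of 0.188 and 0.149. In the RNA processing list 18 genes were tested with a median of -0.10, and below Pus1 at the other end stood Mrm2, an rRNA methyltransferase, at -0.63 ± 0.33 (SE) (edgeR adjusted p = 0.231). The 16 RNA stability genes had a median of -0.026. Their ends were Rexo2, an exonuclease that removes short RNA remnants, at 0.70 ± 0.19 (SE) and Ptcd2, an RNA-binding protein, at -0.83 ± 0.37 (SE), at edgeR adjusted p-values of 0.0736 and 0.176. Of 14 mtDNA maintenance genes tested, none was called and the median was 0.13. The ends there were Top1mt, the mitochondrial topoisomerase, at 0.86 ± 0.24 (SE) and Mpv17, an inner membrane protein needed to keep mtDNA copy number, at -0.93 ± 0.23 (SE), at edgeR adjusted p-values of 0.0753 and 0.0582. Levels of these genes by cell type cannot be read from bulk tissue, and the 13 neutrophil and monocyte markers called higher in the same libraries are given above. Their part in these values was not tested.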

How the data were processed

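Total RNA of rat myocardium had been sequenced in 3 sham and 3 ischemia samples with a stranded total RNA kit, and the submitters' processing notes name STAR and HTSeq without versions. The authors deposited 1 table of 32623 genes holding raw read counts, which are not normalized, and FPKM, which the authors had scaled by gene length and library size. Genome build, strand setting and rRNA depletion are not given in the sources used here.

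Members are the genes on chromosome MT. The members and the gene lists were chosen with earlier results of these data known. All mRNAs and rRNAs, tRNAs with a mean of at least 100 counts, called genes of the lists and the ends of each list are named. Ischemia was compared with sham on the counts of the 13964 genes that averaged an FPKM of 0.5 or more by the edgeR 4.0.16 quasi-likelihood test in R 4.3.3, with TMM scaling, no covariates and Benjamini-Hochberg adjustment (threshold 0.05). Standard errors were derived from the F statistic, and the procedure was tested on simulated data. For shares and ratios per sample, two-sided exact permutation tests were used (scipy 1.17.1), which with 3 against 3 cannot go below p = 0.1. The samples are not tied to animals by the labels, so p-values measure the spread between these samples. Alternatives were other scalings, scaling from nuclear genes alone and to the mitochondrial mRNA counts, DESeq2 1.42.0, limma 3.58.1 on log2(FPKM + 0.1) and log2(FPKM + 1), no filter on low values, a mean FPKM of at least 5, the replicate number as a block, FPKM shares and each library left out. A covariate of the log2 summed FPKM of the atrial markers, Nppa included, was added after seeing the data. So was sham limited to replicate 2, the sham library low in atrial markers. Overlap of groups was judged in FPKM and, an alternative also chosen after seeing the data, in FPKM divided by the TMM factors. Fastkd5, Ndufa10, Ndufb1, Cox7a2, Ttn, Col1a2 and Pecam1 were on the lists and not found by symbol in the table. Figures were drawn with matplotlib 3.10.9 in Python 3.11.15.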

Additional observations from a re-analysis of the deposited data

How the results depend on the processing

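The count of mitochondrial genes called was 0 in each direction under 15 of the 19 alternatives. In 7 of these 15 no gene of the table was called, so a count of 0 was given there (the replicate block, each of sham replicates 1 to 3 or ischemia replicate 3 left out, the atrial covariate and sham limited to replicate 2). With limma on log2(FPKM + 0.1), limma on log2(FPKM + 1) and a mean FPKM of at least 5, 1 was higher, and DESeq2 called 1 higher and 1 lower. Over all tested genes the limma fits called 850 and 657 higher and 262 and 209 lower, of 13964. A mean FPKM of at least 5 gave 725 higher and 291 lower of 8156. DESeq2 gave 2071 higher and 1742 lower of 13964. Of the 37 genes, 17 kept their sign under every alternative in which they were tested. Same-numbered samples had correlations of deviations of -0.056, -0.094 and -0.20, with a mean of -0.12 against 0.055 for differently numbered samples. No pairing by number was seen, though so few values cannot settle it. With the replicate block 0 mitochondrial genes and 0 listed nuclear genes were called, the median of the mitochondrial mRNAs was -0.14, and Mt-nd6 and tRNA_11538 turned to -0.023 and 0.041, while the differences in shares and in the mito-nuclear ratio are the same by construction. Mt-nd6 also turned under RLE scaling and DESeq2 (-0.015 each), upper-quartile scaling (-0.0072), a mean FPKM of at least 5 (-0.037) and the atrial covariate (-0.034). tRNA_11538 also turned under total counts (0.056), scaling to the mitochondrial mRNA counts (0.11) and limma with either pseudocount (0.14 each).

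Against sham replicate 2 alone, a fit in which the lone sham sample is assumed to vary like the ischemia samples, the log2 fold changes turned to -0.096 for rRNA_68, -0.14 for tRNA_2665, -0.82 for tRNA_5010, -0.85 for tRNA_5081, -0.79 for tRNA_5185, -0.74 for tRNA_5256, -0.038 for Mt-co2, -0.035 for Mt-atp8, -0.12 for Mt-atp6, -0.24 for Mt-co3 and -0.21 for Mt-nd6, and the difference in tRNA share to -0.016 percentage points. The cause was not tested.

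With each library left out in turn, the median of the mitochondrial mRNAs ranged from -0.23 to 0.13 (0.13 without sham replicate 2 and 0.011 without ischemia replicate 2). The difference in the mitochondrial share of all counts ranged from -1.13 to 1.84 percentage points and that in the minus-strand share from -0.016 to 0.16. Log2 fold changes ranged from -0.56 to 0.063 for Mt-nd1, from -0.38 to 0.19 for Mt-co1, from -0.038 to 0.29 for Mt-co3, from -0.47 to 0.011 for Mt-nd5, from -0.20 to 0.25 for Mt-nd6 and from -0.40 to 0.015 for Mt-cyb. They ranged from -0.19 to 0.96 for tRNA_5010, from -0.21 to 0.99 for tRNA_5081, from -0.13 to 1.12 for tRNA_5185, from -0.12 to 1.11 for tRNA_5256, from -0.41 to 0.37 for tRNA_11538 and from -0.64 to 0.0033 for tRNA_15348. The cause was not tested.

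Of the nuclear genes of mitochondrial gene expression and mtDNA, DESeq2 called 9 higher and 2 lower. Total counts called 2 higher, limma on log2(FPKM + 0.1) 2 higher and 1 lower, limma on log2(FPKM + 1) 2 higher, and a mean FPKM of at least 5 called 2 higher and 1 lower. None was higher with scaling to the mitochondrial mRNA counts, without a filter, with the atrial covariate or against sham replicate 2 alone. Without single libraries, 0 to 3 were higher and 0 to 2 lower, the highest counts without ischemia replicate 1, where 1490 of all genes were higher and 1115 lower. Over all tested genes, edgeR called 723 higher and 214 lower, DESeq2 called 2071 and 1742, and edgeR with the replicate block called 0 (3349 had an unadjusted p under 0.05). With FPKM divided by the TMM factors, 5 mitochondrial genes had groups that did not overlap, in place of 12. Standard errors reached 0.63 both for the 8 tRNAs with under 100 counts on average and for the other 14.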
